A study of Mus musculus with 6 samples.

Results

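The genes described here encode chemokines and their receptors in endothelial cells sorted from the mouse retina. They are the gene symbols of the deposited table that begin with Ccl, Cxcl, Ccr, Cxcr or Ackr and a digit, or with Ccrl, and they number 50 of 19124 symbols: 19 CC ligands, 11 CXC ligands, 15 signalling receptors and 5 atypical receptors. The samples were C57BL/6 pups of genotype Rnf20p/p, an Rnf20 allele that the labels do not describe further. The 3 Ctrl pups were Pdgf{beta}CreERT2neg, without the tamoxifen-activated Cre recombinase that the Pdgfb promoter drives mainly in endothelium, and the 3 KO pups were Pdgf{beta}CreERT2pos. All 6 pups, Ctrl included, received 75 µg of Z-4-HO-Tamoxifen daily from P1 to P4, and CD31+ cells of their digested retinas were sorted at P7 for low-input RNA sequencing, 1 pup per library.

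Chemokines are small secreted proteins that bind to cells and matrix through heparan sulfate and steer cell movement through G protein-coupled receptors. Inflammatory chemokines are switched on by NF-kB or interferon signals and recruit leukocytes, whereas homeostatic ones are made constantly. Cxcl12, its receptor Cxcr4 and the scavenging receptor Ackr3 are known for guiding sprouting vessels, and Cxcr4 marks tip cells in the growing retinal plexus. The series title places Rnf20, a ubiquitin ligase for histone H2B, in VEGF and Notch control of sprouting.

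The 6 libraries held 14581701 to 30692948 counts with 1 entry per gene. Levels are in CPM, after TMM scaling between the libraries. Rnf20 itself stood at 47.9, 57.1 and 56.8 CPM in Ctrl 1, 2 and 3 and at 39.1, 31.0 and 31.7 CPM in KO 1, 2 and 3. The KO libraries lay below each Ctrl library (log2 fold change −0.67, edgeR adjusted p = 0.101). Xist, the RNA that silences an X chromosome in female cells, was at 108 to 209 CPM in Ctrl and at 0.0343 to 4.42 CPM in KO. The Y-linked gene Ddx3y was at 0 to 0.130 CPM in Ctrl and at 23.9 to 152 CPM in KO. The labels give no sex, and in these libraries the sex of the pup and the genotype cannot be told apart. Of the 50 genes only Cxcr3 lies on a sex chromosome, and the limit holds for all 50. The 15 endothelial markers summed to 3708 to 5657 CPM in Ctrl and to 11428 to 15631 CPM in KO, and none of them was at 0. Of the 15, 10 were past the threshold (edgeR adjusted p under 0.05) and higher, with a median log2 fold change of 1.41. Among all tested genes 5.85% were past it and higher and 4.44% lower, and the marker counts are to be read against these shares. Photoreceptor markers ranged in sum from 19961 to 35683 CPM in Ctrl and from 5053 to 24814 CPM in KO, with 2 of 14 past the threshold and lower. Markers of erythroid cells (4 of 5 tested), platelets (2 of 4) and astrocytes and Müller glia (4 of 10) were past it and higher. So were markers of mural cells (1 of 10) and of fibroblasts and meninges (1 of 5). The part of any of these cells in the results was not tested. In bulk RNA of this kind, fewer cells of a type and less RNA per cell cannot be told apart.

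Promoter letters of 3 ligands that were higher in KO, Cxcl10, Cxcl1 and Cxcl2, are shown because their windows share a kappaB core, and that of the receptor Ackr3 because its window lacks one. The sequences are the 250 bases before the transcription start, 5′ to 3′ on the strand of the gene, from RefSeq (GRCm38.p6): chr5:92348890-92349139 (minus strand), chr5:90890995-90891244 (plus), chr5:90903649-90903898 (plus) and chr1:90203730-90203979 (plus). Capitals mark matches to any motif searched.
Cxcl10: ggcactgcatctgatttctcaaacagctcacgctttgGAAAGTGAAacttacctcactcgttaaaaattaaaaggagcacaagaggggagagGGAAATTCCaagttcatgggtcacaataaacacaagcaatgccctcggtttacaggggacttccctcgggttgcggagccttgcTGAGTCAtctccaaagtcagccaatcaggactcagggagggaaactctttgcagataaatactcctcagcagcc
Cxcl1: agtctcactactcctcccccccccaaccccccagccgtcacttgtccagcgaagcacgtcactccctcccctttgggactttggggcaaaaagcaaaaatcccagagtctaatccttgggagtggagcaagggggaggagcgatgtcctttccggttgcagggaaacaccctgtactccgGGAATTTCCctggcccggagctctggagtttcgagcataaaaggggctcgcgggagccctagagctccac
Cxcl2: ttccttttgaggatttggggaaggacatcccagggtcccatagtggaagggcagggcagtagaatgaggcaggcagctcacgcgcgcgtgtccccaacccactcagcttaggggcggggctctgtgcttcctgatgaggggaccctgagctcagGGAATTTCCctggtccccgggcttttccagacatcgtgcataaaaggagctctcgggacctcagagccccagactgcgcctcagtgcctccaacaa
Ackr3: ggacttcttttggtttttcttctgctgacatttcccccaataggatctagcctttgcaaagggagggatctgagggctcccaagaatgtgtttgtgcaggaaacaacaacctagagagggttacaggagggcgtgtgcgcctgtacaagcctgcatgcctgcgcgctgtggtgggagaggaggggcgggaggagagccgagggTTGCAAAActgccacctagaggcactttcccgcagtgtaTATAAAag

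The motifs were searched on both strands. The kappaB core GGANNTTCC, a part of the site that NF-kB binds, was at −158 to −150 in Cxcl10, −70 to −62 in Cxcl1 and −96 to −88 in Cxcl2, each place matching the core on both strands. It was present in 3.59% of 32851 windows and in 7 of the 36 family members with a window. Of the 5 genes past the threshold that have a window, 3 held it. The ligand Ccl20 lacked it as Ackr3 did, and the ligands Ccl2 and Ccl7 had no window. The ISRE core GAAANNGAA, from the element that interferon-activated factors bind, was at −213 to −205 in Cxcl10 and in 7.13% of windows. Cxcl10 also held an AP1 site, TGANTCA (6.75% of windows), at −74 to −68. Ackr3 held a CEBP motif, TTGCNNAA (9.56%), at −47 to −40 and TATAAA (12.4%) at −8 to −3. The other motifs were the GAS element TTCNNNGAA (7.02% of windows), absent from all windows of the 5 called genes the table holds, and the RBPJ motif TGGGAA (21.6%), found among them in Ccl20. These matches are descriptions of letters.

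**Figure D1:**
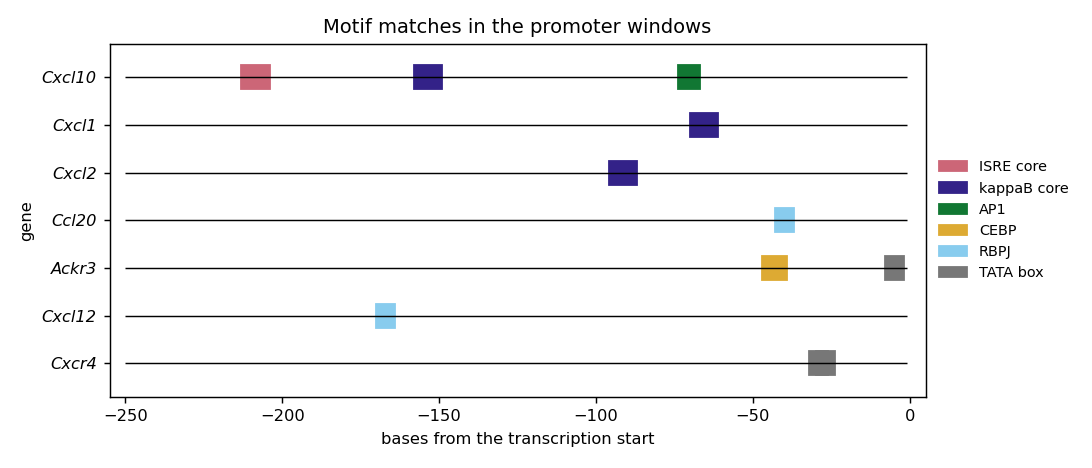
Motif matches in the 250 bases before the transcription start of 7 genes; the x axis gives bases from the start and each box spans a match. The kappaB core appears in Cxcl10, Cxcl1 and Cxcl2, and the ISRE core in Cxcl10.

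Most family members that differed between genotypes were inflammatory ligands. Cxcl10, Cxcl1, Cxcl2, Ccl2, Ccl7 and Ccl20 and the scavenger receptor Ackr3 rose in KO, and no family member fell. The test throughout was the quasi-likelihood F test of edgeR, its p-values adjusted over all tested genes by the Benjamini-Hochberg method, with a threshold of 0.05. Of the 50 members 37 passed the filter on low counts, and 7 of them were higher, where 5.85% of 16217 genes were higher and 4.44% lower. Without the filter 7 of all 50 were higher, where 4.31% of 19104 genes were. The median log2 fold change of the 50 in that fit was 1.54, against 0.05 for all genes. In 16 of the 50 every KO library lay above every Ctrl library, and in 2 below, where 17.1% and 16.7% of all symbols did so. By DESeq2 14 members passed, 13 higher and 1 lower, where 22.0% of genes did, and by limma-voom 9, all higher, where 11.8% did. For each of the 7 the exact permutation test over libraries (n = 3 each, two-sided) gave p = 0.1, the smallest this design allows.

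**Figure D2:**
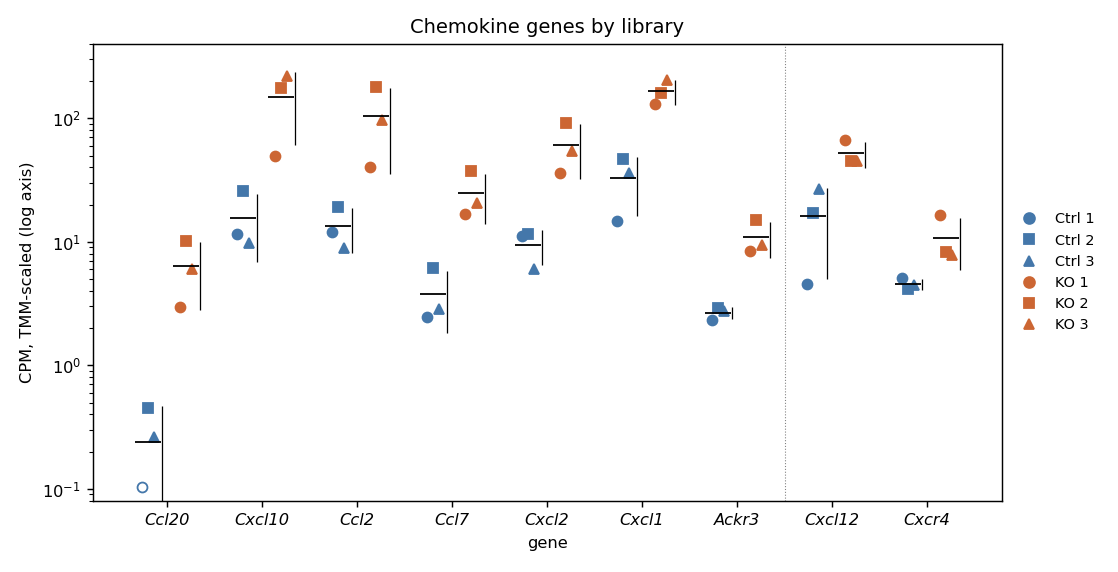
Level of the 7 genes past the threshold, and of Cxcl12 and Cxcr4 to the right of the dotted line, in each library (y axis, CPM on a log scale); horizontal lines are group means and vertical lines SD, cut at the lower edge of the axis, and the open symbol is a library with 0 counts drawn at the level of 3 counts. For each gene the 3 KO libraries lie above the 3 Ctrl libraries.

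The CXC ligands of the interferon-induced class were led by Cxcl10, which attracts T cells through Cxcr3 (chromosome 5, 92346638 to 92348889, GRCm38.p6). Cxcl10 was at 11.5, 25.7 and 9.71 CPM in Ctrl 1, 2 and 3 and at 49.7, 178 and 219.8 CPM in KO 1, 2 and 3. The lowest KO library, KO 1, was still above the highest Ctrl library. The mean went from 15.7 ± 8.79 to 149 ± 88.6 CPM (SD, n = 3), a 9.52-fold rise (log2 fold change 3.25 ± 0.619 SE, edgeR adjusted p = 0.0239). Its neighbour Cxcl11, which RefSeq lists as a transcribed pseudogene in this strain, was at 0.103, 0.413 and 0 CPM in Ctrl 1, 2 and 3 and at 1.72, 2.59 and 2.502 CPM in KO 1, 2 and 3. These rest on at most 73 counts, and Cxcl11 narrowly missed the threshold (log2 fold change 3.62 ± 0.968 SE, edgeR adjusted p = 0.0519). Cxcl9, the third ligand of Cxcr3, stayed under 1 CPM in each library and was too low to test. Cxcr3 itself had 0, 1 and 0 counts in Ctrl 1, 2 and 3 and 0, 43 and 3 counts in KO 1, 2 and 3.

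Cxcl10 and Cxcl11 lie inside Art3, an ADP-ribosyltransferase gene, and reads there were counted for the host as well. The longest Art3 entry held 417 to 766 counts in Ctrl and 1785 to 6955 in KO, whereas a shorter entry held 68 to 195 and 304 to 421. The counts in the longest entry alone were matched closely by Cxcl10 and Cxcl11 together, which made up 89.8% to 99.1% of that difference in the 6 libraries. The log2 fold change of 2.86 for Art3 as listed (edgeR adjusted p = 0.0229) thus includes those reads. In all, 15 of the 50 members overlap another gene of the table by gene span, among them Cxcl16 (Zmynd15), Ccl27a (Il11ra1) and Cxcr5 (Bcl9l). An overlap can be slight: on chromosome 4 Il11ra1 ends at 41769473 and Ccl27a begins at 41769467. Shared reads were examined for Art3 alone, and the counts of the other overlapping members are uncertain to an unknown extent.

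**Figure D3:**
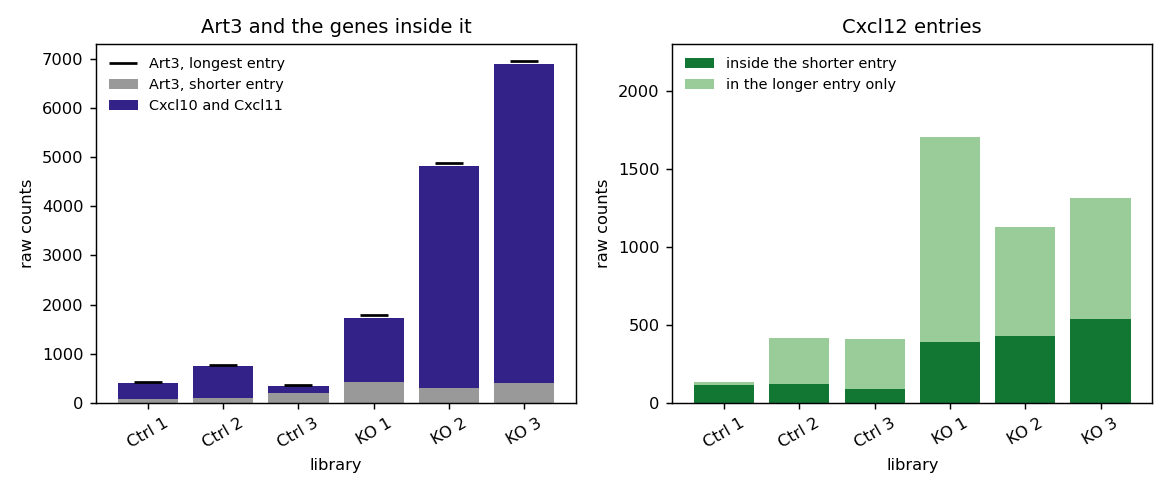
Raw counts by library (y axes). Left, the shorter Art3 entry with Cxcl10 and Cxcl11 stacked on it reaches nearly the count of the longest Art3 entry (black line) in each library; right, Cxcl12 counts inside the shorter entry and in the longer entry only, the latter 22 in Ctrl 1 and 1314 in KO 1.

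Cxcl1 and Cxcl2, which attract neutrophils through Cxcr2, are neighbours on chromosome 5 (90891245 to 90893121 and 90903899 to 90905938). Cxcl1 was at 14.7, 46.9 and 36.1 CPM in Ctrl 1, 2 and 3 and at 131, 160.3 and 206 CPM in KO 1, 2 and 3. Its KO libraries differed from each other less than its Ctrl libraries did in ratio, and the mean was 5.09-fold higher (log2 fold change 2.35 ± 0.434 SE, edgeR adjusted p = 0.0233). Cxcl2 was at 11.1, 11.5 and 6.00 CPM in Ctrl and at 35.9, 92.2 and 54.6 CPM in KO, in the same order of libraries. It was 6.40-fold higher, and no KO library came near the Ctrl range (log2 fold change 2.67 ± 0.435 SE, edgeR adjusted p = 0.0219). Cxcl5, another ligand of Cxcr2, had at most 17 counts in a library. The receptor Cxcr2 was at 0.0683 to 0.454 CPM in Ctrl and at 0.0686 to 1.16 CPM in KO and did not pass (edgeR adjusted p = 0.385). The neutrophil markers summed to 0.587 to 2.23 CPM in Ctrl and to 33.1, 5.89 and 3.53 CPM in KO 1, 2 and 3. Of the 6 in the table Mpo was at 0 in all libraries, and 2 were tested, with a median log2 fold change of 3.34. Of these 0 passed edgeR's threshold (unadjusted, 1 was below 0.05), and DESeq2 and limma-voom each called 1. The part of neutrophils in these results was not tested.

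Ccl2 and Ccl7, which attract monocytes through Ccr2, lie side by side on chromosome 11 (82035577 to 82037452 and 82045712 to 82047525). Ccl2 was at 11.96, 19.3 and 8.93 CPM in Ctrl 1, 2 and 3 and at 40.3, 179 and 96.8 CPM in KO 1, 2 and 3. KO 2 was the highest library, and the groups did not overlap (7.86-fold, log2 fold change 2.97 ± 0.561 SE, edgeR adjusted p = 0.0239). Ccl7 was at 2.46, 6.11 and 2.87 CPM in Ctrl and at 16.8, 37.2 and 20.7 CPM in KO (6.53-fold, log2 fold change 2.70 ± 0.493 SE, edgeR adjusted p = 0.0231). The next genes of that cluster, Ccl11 (log2 fold change 0.84) and Ccl12 (2.05), did not pass (edgeR adjusted p = 0.676 and 0.330). Ccr2 was under 1 CPM in each library and was not tested.

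Ccl20, the ligand of Ccr6 (chromosome 1, 83116766 to 83119167), was nearly silent in Ctrl. It had 0, 11 and 4 counts in Ctrl 1, 2 and 3, of which the 0 allows up to 0.103 CPM by counting error alone, and 76, 255 and 177 counts in KO 1, 2 and 3. The mean was 26.9-fold higher (0.238 ± 0.228 CPM in Ctrl, SD, n = 3, against 6.40 CPM in KO, with KO libraries from 2.98 to 10.2 CPM), and the log2 fold change of 4.76 ± 1.04 (SE) was the largest of the 37 tested members (edgeR adjusted p = 0.0318). It was 4.11 without Ctrl 1 and 5.84 without Ctrl 2. Its receptor Ccr6 was at 0 to 0.456 CPM in Ctrl and at 0.514 to 1.19 CPM in KO and did not pass (log2 fold change 1.62, edgeR adjusted p = 0.354).

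A further set of ligands varied widely between libraries of the same genotype and did not pass. It included Ccl3 and Ccl4, ligands that microglia and macrophages make. Ccl4 was at 126, 114 and 7.95 CPM in Ctrl 1, 2 and 3 and at 18.5, 1737 and 334 CPM in KO 1, 2 and 3. Ccl3 was at 34.7, 46.2 and 4.17 CPM in Ctrl and at 8.51, 519.8 and 109 CPM in KO. Both were low in Ctrl 3 and KO 1 and very high in KO 2, so that the groups overlapped. Their log2 fold changes of 2.90 ± 1.30 for Ccl3 and 3.07 ± 1.44 for Ccl4 (SE) did not pass (edgeR adjusted p = 0.174 and 0.189). Without KO 2 they were 1.09 and 1.13. Ccl12 ran from 0.456 to 4.61 CPM in Ctrl and from 0.196 to 28.8 CPM in KO, with KO 1 lowest and KO 2 highest. Ccl6, Ccl9 and Cxcl16 overlapped between groups as well (log2 fold changes 2.00, 1.47 and 1.33, edgeR adjusted p = 0.178, 0.2998 and 0.242), and KO 2 held the highest value of each.

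The markers of microglia and macrophages, 14 genes such as Aif1 and Csf1r, were likewise lowest in Ctrl 3 and KO 1 and highest in KO 2. They summed to 1406, 1789 and 275 CPM in Ctrl 1, 2 and 3 and to 258, 13883 and 2671 CPM in KO 1, 2 and 3. The median log2 fold change of the 14 was 1.88, with a wide spread between libraries of the same genotype. None of the 14 passed edgeR's test, DESeq2 or limma-voom after adjustment, and 0 had an unadjusted p below 0.05 by edgeR. None was at 0 in all libraries, although 1 of them was in KO 1. KO 1 had the lowest microglial sum of the 6. In KO 1 Cxcl10, Cxcl1, Cxcl2, Ccl2, Ccl7, Ccl20 and Ackr3 were each higher than in any Ctrl library. With the mean of these markers as a covariate, a fit added after the values were seen, all 7 passed, with log2 fold changes of 1.95 to 4.49 (edgeR adjusted p = 0.00732 to 0.0167). That fit called 14 members, where 20.1% of all genes were called. Ccl12 went from 2.05 to 0.16 in it, and Ccl3 and Ccl4 to 1.37 each (edgeR adjusted p = 0.0158 and 0.0330, over all alternatives 0.0158 to 0.635 and 0.0327 to 0.662). The part of microglia in the results of either set of genes was not tested.

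**Figure D4:**
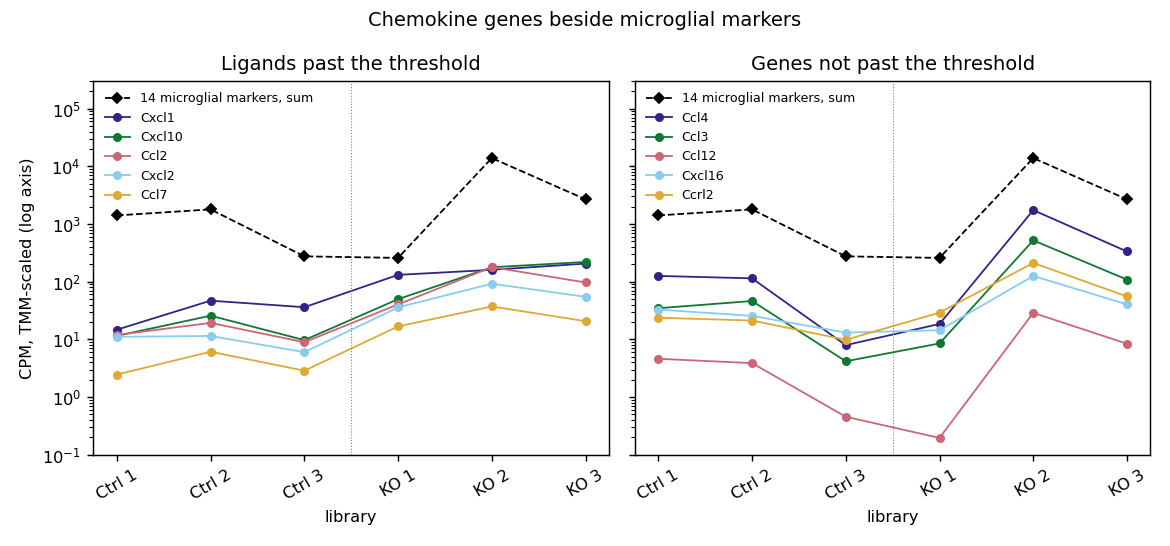
Level in each library (y axis, CPM on a log scale) of 5 ligands past the threshold (left) and 5 genes not past it (right), beside the summed microglial markers (dashed); lines only join the values of a gene. In KO 1 the microglial sum is lowest, at 258 CPM, the ligands at left and Ccrl2 lie above their Ctrl values, and the other genes at right lie within or below theirs; the part of microglia was not tested.

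Homeostatic Cxcl12, which guides endothelial and blood-forming cells, was higher in each KO library (chromosome 6). It was at 4.54, 17.1 and 26.7 CPM in Ctrl 1, 2 and 3 and at 66.8, 44.9 and 45.0 CPM in KO 1, 2 and 3. The groups did not overlap, but the Ctrl libraries were spread widely and the log2 fold change of 1.70 ± 0.569 (SE) did not pass (edgeR adjusted p = 0.0892). On this longer entry Cxcl12 passed by DESeq2 (adjusted p = 0.0138), limma-voom (0.0476) and edgeR with the microglial markers as covariate (0.0401), and its adjusted p reached 0.219 without Ctrl 2. The spread lay in the part of the gene outside the shorter of its transcript entries. There Cxcl12 was at 0.752, 12.1 and 20.9 CPM in Ctrl and at 51.5, 28.0 and 26.7 CPM in KO. Inside the shorter entry it was at 3.79, 4.95 and 5.80 CPM in Ctrl and at 15.3, 17.0 and 18.3 CPM in KO, or 4.85 ± 1.01 against 16.9 ± 1.49 (SD, n = 3). Counted by the shorter entry, a choice made after the values were seen, Cxcl12 passed at 3.48-fold (log2 fold change 1.80 ± 0.320 SE, edgeR adjusted p = 0.0228), and no further alternative was run on that entry. Markers of mural cells, which also make Cxcl12, summed to 127, 340 and 816 CPM in Ctrl 1, 2 and 3. In KO 1, 2 and 3 they summed to 803, 580.0 and 329 CPM, and none was at 0 in all libraries. Of the 10, Des was past edgeR's threshold and higher, where 5.85% of all tested genes were, and the median log2 fold change was 1.29. Unadjusted, 4 were below 0.05 by edgeR. DESeq2 called 4 and limma-voom 2, where they called 22.0% and 11.8% of all genes. The part of mural cells in the result was not tested.

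Among the 10 tested signalling receptors 0 passed edgeR's threshold, where 5.85% of all tested genes were higher and 4.44% lower. An unadjusted p below 0.05 by edgeR was found for Cxcr4, Cxcr5 and Ccr9. DESeq2 called these 3, where it called 22.0% of all genes, and limma-voom called 0, where it called 11.8%. Cxcr4, the Cxcl12 receptor (chromosome 1), was at 5.06, 4.13 and 4.43 CPM in Ctrl 1, 2 and 3 and at 16.4, 8.20 and 7.78 CPM in KO 1, 2 and 3. All KO values were above all Ctrl values and KO 1 stood highest, but the log2 fold change of 1.25 ± 0.403 (SE) did not pass (edgeR adjusted p = 0.0822). It was 0.88 without KO 1. Ccr7, a homing receptor of lymphocytes and dendritic cells, was at 2.23 to 8.08 CPM in Ctrl and at 5.76 to 21.9 CPM in KO (log2 fold change 1.35, edgeR adjusted p = 0.195). Cxcr5, a receptor of B cells, was at 0.196 to 0.867 CPM in Ctrl and at 0.960 to 3.90 CPM in KO and did not pass (log2 fold change 2.46, edgeR adjusted p = 0.0789). The B cell markers summed to 4.50 to 7.69 CPM in Ctrl and to 13.8 to 38.4 CPM in KO, and of the 5 only Cd79b passed edgeR's threshold. Unadjusted, 3 of them were below 0.05 by edgeR. DESeq2 called 3 and limma-voom 0, and their median log2 fold change was 2.22. The T and NK cell markers summed to 3.69 to 6.27 CPM in Ctrl and to 6.92 to 19.8 CPM in KO, with 0 of 6 past it by edgeR (unadjusted, 3 were below 0.05; DESeq2 called 1 and limma-voom 0). The part of either in these values was not tested. Ccr9, a receptor of gut-homing cells, had a negative estimate, at 0.957 to 2.39 CPM in Ctrl and at 0.199 to 0.431 CPM in KO (log2 fold change −2.10, edgeR adjusted p = 0.0876).

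Among the atypical receptors, which bind chemokines without G protein signalling, Ackr3 was past the threshold. Ackr3, which scavenges Cxcl12 and Cxcl11 (chromosome 1, 90203980 to 90215724), was at 2.32, 2.89 and 2.74 CPM in Ctrl 1, 2 and 3 and at 8.47, 15.1 and 9.43 CPM in KO 1, 2 and 3. The Ctrl libraries were nearly equal, and KO was 4.14-fold higher (log2 fold change 2.05 ± 0.381 SE, edgeR adjusted p = 0.0233). The 15 endothelial markers had a median of 1.41 on the same log2 scale. Cxcr4, at 1.25, lay below that median and Cxcl12, at 1.70, above it. The part of a higher endothelial share in any of these values was not tested. Ccrl2, which holds chemerin at the cell surface, was at 23.7, 21.2 and 9.84 CPM in Ctrl and at 29.1, 211 and 55.4 CPM in KO. Its groups did not overlap, but KO 2 stood far above the rest and it did not pass (log2 fold change 2.43 ± 0.721 SE, edgeR adjusted p = 0.0666). Ackr1, Ackr2 and Ackr4, scavengers of many or homeostatic chemokines, overlapped between groups, with log2 fold changes of 0.31, 0.74 and 0.57 (edgeR adjusted p = 0.608, 0.320 and 0.331).

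**Figure D5:**
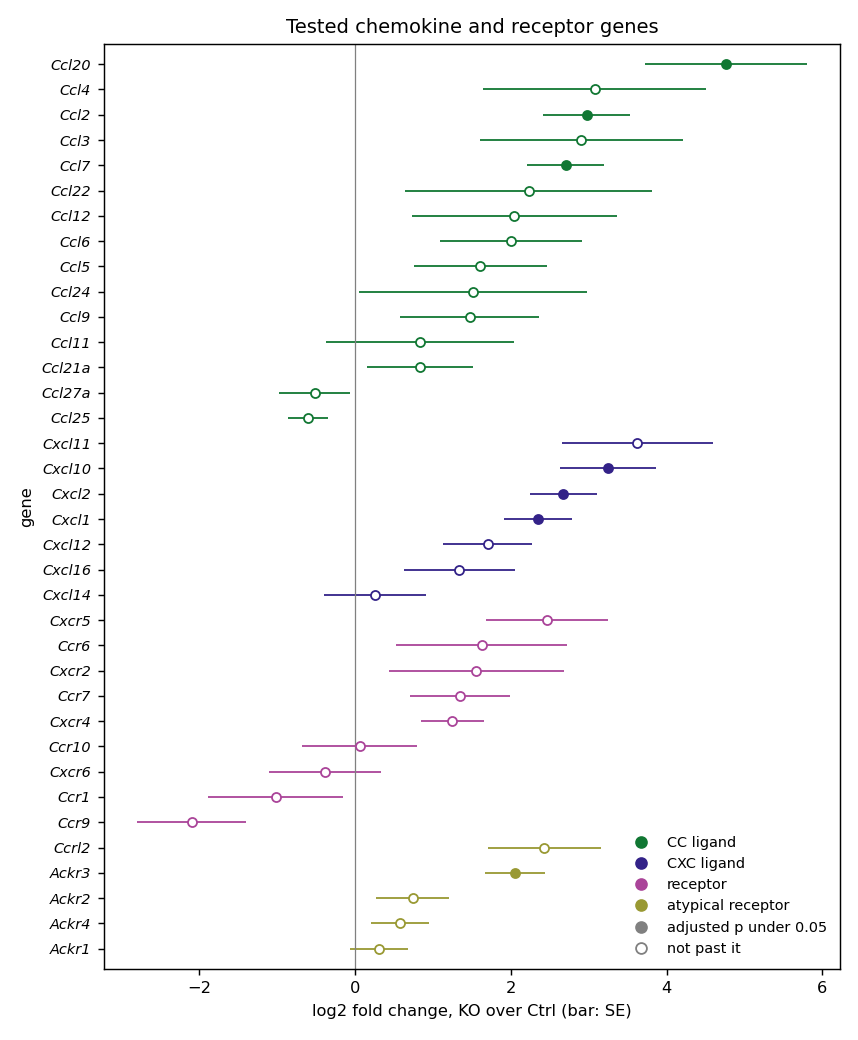
Log2 fold change of KO over Ctrl (x axis, bars are SE from edgeR) of 36 of the 37 tested members, ordered by class; filled points passed the adjusted threshold. The 7 filled points lie between 2.05 (Ackr3) and 4.76 (Ccl20).

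Of the 37 tested members 31 had a positive estimate and 6 a negative one. The negative ones included Ccl25 and Ccl27a, chemokines of thymus and skin. Ccl25 was at 28.1, 26.8 and 26.3 CPM in Ctrl 1, 2 and 3 and at 20.4, 14.9 and 18.1 CPM in KO 1, 2 and 3, without overlap (log2 fold change −0.61 ± 0.259 SE, edgeR adjusted p = 0.158). Its longest entry held 373 to 821 counts, whereas its shorter entry held 103 to 166 counts in Ctrl and 110 to 196 in KO, so most of these reads lay outside the shorter transcript. Ccl27a overlapped between groups (log2 fold change −0.52, edgeR adjusted p = 0.469). The 13 untested members had a mean of at most 0.391 CPM over the 6 libraries. They were Ccl1, Ccl17, Ccl19, Ccl28, Cxcl5, Cxcl9, Cxcl13, Cxcl17, Ccr1l1, Ccr2, Ccr3, Ccr4 and Cxcr3.

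Genes around the family were taken from lists of other pathway members, to be read against the 5.85% of all tested genes that were higher and the 4.44% that were lower. Of 17 NF-kB factors and targets 6 rose and 0 fell, among them the inhibitor Nfkbia (log2 fold change 2.05), the subunits Nfkb2 (1.78) and Relb (1.98) and the coactivator Bcl3 (1.81), with a list median of 1.77 against 0.03 for all tested genes. Of 17 tested interferon-response genes 3 rose and 0 fell, Bst2 (2.81), Isg15 (2.49) and Gbp2 (1.68), with a median of 0.90. Of 10 chemokine system genes outside the symbol pattern 4 rose and 0 fell, with a median of 1.93: Cx3cl1, the membrane-bound chemokine of endothelium and neurons, the platelet chemokine Pf4 (1.92), Cd74 (2.40) and the chemerin receptor Cmklr1 (2.16). Cx3cl1 was at 13.98, 26.4 and 26.6 CPM in Ctrl 1, 2 and 3 and at 82.8, 88.8 and 83.7 CPM in KO 1, 2 and 3, nearly the same in each KO library (log2 fold change 1.93 ± 0.304 SE, edgeR adjusted p = 0.0212). Its receptor Cx3cr1, a microglial gene, ranged from 0.862 CPM in KO 1 to 554 CPM in KO 2. Of 25 genes of receptor signalling 4 rose and 0 fell, the G protein subunits Gnai2 (2.55) and Gnb2 (1.22), the receptor kinase Grk2 (1.55) and Rgs16 (0.97), with a median of 0.97. Gnb2 and Rgs16 lay below the median of 1.41 of the endothelial markers, and Gnai2 and Grk2 above it. Of 18 heparan sulfate genes perlecan, Hspg2, rose (2.44) and the sulfatase Sulf1 (−1.33) and the epimerase Glce (−1.42) fell, with a median of 0.35.

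The calls depended on which library was left out. Without Ctrl 1, Ctrl 2, Ctrl 3 or KO 2, 0 genes of the whole table passed edgeR's test, and 0 members. In these fits 12 to 14 of 40 tested members had an unadjusted p below 0.05 by edgeR. So did 3434 to 4005 of the 16533 to 16722 genes tested. With the replicate number as a block 0.00617% of 16217 genes and 0 of 37 members passed (edgeR adjusted p = 0.126 for each of the 7). Unadjusted, 13 members and 3407 genes were below 0.05 in that fit. Each of the 7 kept a positive estimate and an unadjusted p below 0.05 without any of these libraries, with log2 fold changes of 1.78 to 5.84 (edgeR adjusted p = 0.0801 to 0.121). Without KO 3, Cxcl10 and Ccl20 missed the threshold, with edgeR adjusted p = 0.0511 and 0.05999, and the other 5 passed, where 5.23% of genes did. Without KO 1, 13 members passed, among them all 7, where 29.7% of genes did.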

How the data were processed

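RNA of 6 libraries, 3 Ctrl and 3 KO, was analysed from the deposited table of 34035 transcript entries under 19124 symbols. The raw counts per entry are the authors' own, as the file headers name them, and the table also holds a deposited signal, the count divided by 1 size factor per library. Per the submitters' processing notes, Trimmomatic 0.36, STAR, DESeq2, edgeR, deepTools and mm10 were used. How reads were counted, and with which annotation, is not given in the sources used here. SMART-Seq II, the chemistry named in the labels' protocols, does not mark strand, so reads of overlapping genes cannot be assigned by strand. A Ctrl count column with an odd number in its name was taken as Ctrl 3, the only one left. No per-sample column was unused (0).

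The longest entry per symbol was tested with edgeR 4.0.16 in R 4.3.3 (TMM, filterByExpr with its minimum count of 10, quasi-likelihood, no covariate). The SE is the log2 fold change divided by the square root of F. Totals per library set counting precision, and with 3 against 3 an exact permutation p cannot go below 0.1. Alternatives were DESeq2 1.42.0, limma-voom (limma 3.58.1), DESeq2 size factors, no filter, the entry with the highest count, the replicate block, each library left out, and 2 choices added later. The tests were checked on simulated counts. Positions, promoters and biotypes are from RefSeq tables of GRCm38.p6, where all 50 members matched by accession and 36 had a promoter window by symbol. The values of 1 tested member are not reported here. Members and lists were chosen with earlier results of these data known. Members past the threshold, Cxcl10, Cxcl1, Cxcl12, Cxcr4, members with a mean of at least 5 CPM and up to 4 called genes per list were named by rule; Xist, Ddx3y, Cx3cr1, Cxcl11, Cxcr5, Ccr9 and the partner receptors were named after their values were seen. Summaries used pandas 2.3.3 and exact tests scipy 1.17.1, under Python 3.11.15; plots were drawn by matplotlib 3.10.9.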

Additional observations from a re-analysis of the deposited data

How the results depend on the processing

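With all 6 libraries, 7 members and 1668 genes passed. DESeq2 called 14 members and 3565 genes, and the fit with microglial markers as covariate 14 and 3261. In the simulated counts DESeq2 made more false calls than edgeR, and the limit on false calls was then kept for edgeR alone. Those counts had 1 setting of spread for all genes, so they cannot decide which calls here are false. limma-voom called 9 members and 1910 genes, and no filter 7 and 1454. Leaving out each library gave 0 to 13 members and 0 to 4927 genes. The fit with the replicate number as a block called 0 of 37 members (13 at an unadjusted p below 0.05) and 1 of 16217 genes (3407). Same-numbered libraries had deviation correlations of −0.36, 0.07 and −0.25, and differently numbered ones of −0.30 to 0.38. With deviations taken from the mean of 3 libraries per group, these values cannot show whether the numbers pair the libraries. Among named members the direction reversed for Ccl9 alone, which ranged from −0.052 (without KO 2) to 2.01 with each library left out. The cause was not tested.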
